A study of Mus musculus with 15 samples.

Results

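Adamts6, Abi3bp and Serpinh1 are genes of extracellular matrix assembly whose cassette exons are listed as changed between wild-type (WT) and Mbnl3 mutant forelimbs. They were taken by gene symbol from the authors' deposited table of cassette exons, and gave 4 of its 98 events and 3 of its 84 genes. A cassette exon is one that a transcript either includes or skips. The study also measured where Mbnl3, a muscleblind RNA-binding protein, touches RNA, by HITS-CLIP, in which ultraviolet light ties RNA to the protein, an antibody pulls both down, and the RNA fragments are read as short tags. RNA-seq was done on poly(A) RNA of forelimbs from female mouse embryos at 15 days post coitum, 3 WT and 3 homozygous for the Mbnl3 ΔE2 allele. HITS-CLIP was done on forelimbs of BL6 embryos of the same age, 3 WT and 3 ΔE2/ΔE2 libraries with 4 forelimbs pooled from 2 embryos in each, and on 3 libraries of C2C12, a mouse myoblast line grown in 20% serum. By the title of the series the allele is an isoform knockout, so not every form of the Mbnl3 protein need be missing from the mutant. The level of Mbnl3 itself was not analysed here.

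Matrix is built from proteins that are folded in the endoplasmic reticulum, secreted, and then cut and assembled outside the cell. Serpinh1, also called Hsp47, is a chaperone of the endoplasmic reticulum that binds newly made procollagen and is needed for collagen to fold into its triple helix. Adamts6 is a secreted metalloprotease with thrombospondin motifs that acts on matrix proteins, and Abi3bp is a secreted matrix protein with fibronectin type III domains made by mesenchymal cells. Muscleblind proteins bind RNA directly and regulate whether cassette exons are included, so both the exons and the binding of Mbnl3 near them were measured. Exon and promoter sequences are not printed, since no genome of the files' build (mm9) was used here.

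The genes were chosen by their inclusion values in the 2 genotypes, so inclusion is described here with no test. Inclusion is the mean of the tags on the upstream and the downstream inclusion junctions, divided by that mean plus the tags on the skipping junction. The deposited table gives 1 total per genotype, so there is no spread between embryos, and the exact binomial (Clopper-Pearson) 95% intervals cover counting error only. Each event in the authors' deposited table has an adjusted p of at most 0.0498 and a change of at least 10.1 percentage points, so smaller changes are not listed. The 4 events had adjusted p-values in the authors' deposited table of 0.0209 for Adamts6, 0.0448 for Abi3bp, and 0.00617 and 0.00985 for Serpinh1. The Abi3bp value lies close to the end of the list. Fisher's test on the isoform tag totals of the 2 genotypes matched the authors' unadjusted p-values within 0.1 in log10 for 98 of 98 events. The authors' p-values thus also cover counting error only, with no spread between embryos.

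The collagen chaperone Serpinh1 had an exon of 44 nt with lower inclusion in the mutant. The event lies within chromosome 7 from 106497313 to 106501474 on the minus strand (mm9), with an upstream intron of 1019 nt and a downstream intron of 2359 nt. Its length is not a multiple of 3. Whether this exon or those of the other 2 genes are coding was not analysed here, so the lengths say nothing of a reading frame. The upstream exon ends at either of 2 splice donors that lie 5 nt apart, and the table has a row for each. With the first donor, WT had 40.2 tags on the upstream junction, 157 on the downstream junction and 83.8 on the skipping junction. In the mutant these were 57.1, 214 and 213. The skipping junction thus held 2.54 times as many tags in the mutant, whereas the upstream and downstream junctions held 1.42 and 1.36 times as many. With all downstream tags counted in this row, inclusion was 54.1% in WT (46.6 to 61.5) and 38.9% in the mutant (33.6 to 44.1). The difference was -15.2 percentage points.

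With the second Serpinh1 donor, the upstream junction had 29.5 tags in WT and 45.8 in the mutant, and the skipping junction 126 and 298. The downstream junction is the same one in both rows, so the rows share those tags and are not independent. Each row sets all of those tags against the upstream and skipping tags of 1 donor. The inclusion level of each row therefore lies above that of the summed donors and is not a level for that donor alone. Inclusion was 42.5% in WT (35.8 to 49.3) and 30.4% in the mutant (26.05 to 35.0), a difference of -12.2 points. When the donors were summed, inclusion was 35.1% in WT (30.0 to 40.7) and 23.7% in the mutant (20.5 to 27.1). Serpinh1 transcripts that skipped the exon were thus the more common form in both genotypes once the donors were summed. Both Serpinh1 rows were lower in the mutant, as were 45.9% of all listed events, a share that the choice of events by this contrast fixes and from which nothing is read.

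The metalloprotease Adamts6 had an exon of 137 nt with higher inclusion in the mutant. It lies within chromosome 13 from 105156874 to 105165862 on the plus strand, between introns of 2713 and 5851 nt, and its length is also not a multiple of 3. WT had 1.01 tags on the upstream junction, 4.01 on the downstream junction and 21.99 on the skipping junction. The mutant had 12.1, 4.06 and 6.94. The upstream and skipping junctions therefore differed between the genotypes, while the downstream junction had the same few tags in both. Inclusion was 10.3% in WT (2.55 to 31.2) and 53.7% in the mutant (26.6 to 78.7), a difference of 43.4 points.

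This change ranked 3 of the 98 events by size, and it rested on the fewest junction tags of any of them, 27.01 in WT and 23.1 in the mutant. The upstream junction alone gave 4.41% and 63.5%, and the downstream junction alone 15.4% and 36.9%. The 2 junctions of this exon thus placed the difference at 59.0 and 21.4 points. The counting intervals of inclusion in WT and in the mutant overlapped between 26.6% and 31.2%.

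The matrix protein Abi3bp had an exon of 60 nt, a multiple of 3, with higher inclusion in the mutant. It lies within chromosome 16 from 56647138 to 56652329 on the plus strand, between introns of 3611 and 1366 nt. WT had 35.3 tags on the upstream junction, 6.01 on the downstream junction and 19.7 on the skipping junction. The mutant had 87.8, 20.0 and 16.2. Tags that include the exon were 2.49 and 3.33 times as many in the mutant on the upstream and downstream junctions, and tags that skip it 0.820 times as many. Inclusion was 51.1% in WT (35.1 to 67.1) and 76.9% in the mutant (65.6 to 86.3), a difference of 25.8 points. These counting intervals overlapped between 65.6% and 67.1%. Adamts6 and Abi3bp thus moved in the direction of 54.1% of the listed events, which again follows from the choice and supports nothing.

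**Figure D1:**
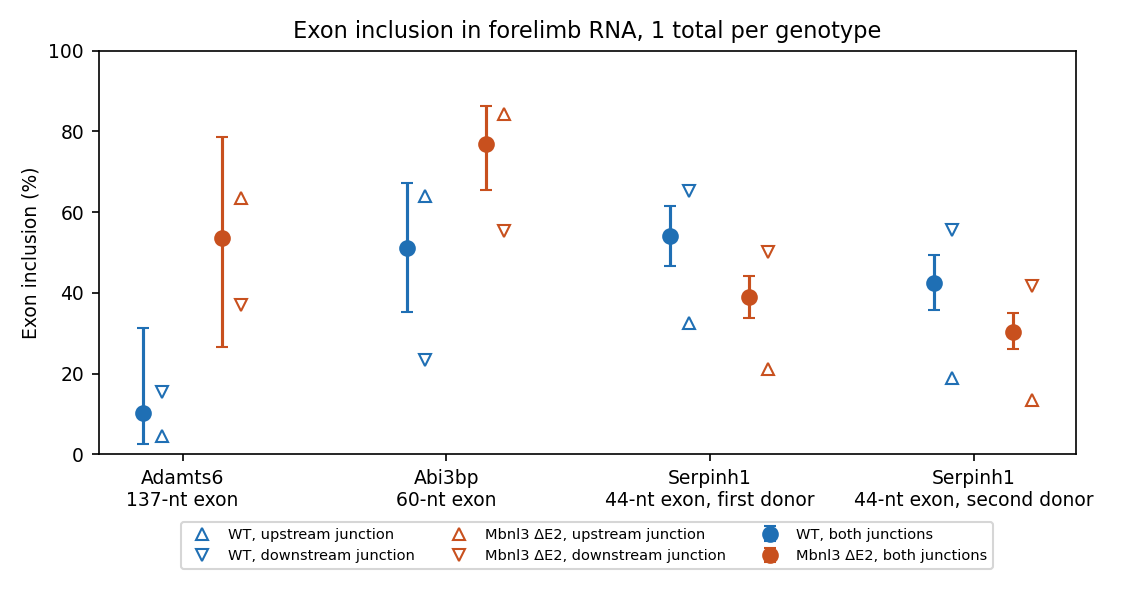
Inclusion of the 4 exon events (percent, vertical axis) in WT and ΔE2 forelimb RNA, 1 total per genotype. Each Serpinh1 row counts all downstream tags, so its filled points lie above the inclusion of the summed donors. Filled points use both inclusion junctions with exact 95% binomial intervals of counting error, and open triangles use the upstream (pointing up) or the downstream junction (pointing down) alone; Adamts6 and Abi3bp were higher in ΔE2 and both Serpinh1 rows lower, whichever junction is used.

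The mutant totals held more tags than the WT totals almost throughout, so junction counts are read against that difference. The median event had 1.67 times as many junction tags in the mutant, and 95 of 98 events had more. The Serpinh1 rows were near that median at 1.72 and 1.78 times, and Abi3bp was at 2.03. Adamts6 was at 0.853 and so was among the 3 events without more tags in the mutant. Against the median of 1.67, the inclusion junctions of Serpinh1 grew less and its skipping junctions more. For Abi3bp it was the reverse.

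The inclusion junctions of a single exon were uneven in all 3 genes. An exon joined to its 2 neighbours in the table would have about equal tags on both sides. The median event had 1.00 times as many downstream as upstream tags in WT. Uneven junctions were not particular to these genes, since other listed events lay much farther from that median on both sides. In WT the downstream tags were, for example, 703 times the upstream ones for Anks3 and 0.012 times for Fgfr2. In Serpinh1 the downstream junction had 3.91 and 5.34 times the upstream tags in WT for the first and second donors, and 3.74 and 4.67 times in the mutant. Even with the donors summed, the downstream junction of Serpinh1 exceeded the upstream ones by 2.26 times in WT and 2.08 times in the mutant. In Abi3bp the upstream junction held more, with a downstream share of 0.170 of it in WT and 0.228 in the mutant. Levels of inclusion therefore moved with the junction used. For the first Serpinh1 donor they were 32.4% in WT and 21.2% in the mutant from the upstream junction, and 65.3% and 50.1% from the downstream one. For Abi3bp they were 64.1% and 84.4% from the upstream junction, and 23.3% and 55.3% from the downstream one.

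Among the 98 events, the size of the change had rank 3 for Adamts6, 20 for Abi3bp, and 52 and 82 for the Serpinh1 rows, with a median of 15.5 points over all events. By junction tags the order was close to the opposite, with Serpinh1 at ranks 24 and 19, Abi3bp at 80 and Adamts6 last at 98. Serpinh1 was thus the best covered of the genes and had the smallest change. An exon length that is a multiple of 3 was found in Abi3bp and in 59 of the 98 events (60.2%), and the median exon was 80.5 nt long.

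The events most like each member were the 2 of other genes with the nearest pair of inclusion values, over the 2 group totals. For Adamts6 these were Slc9a5, a sodium-proton exchanger, 8.31 points away with 18.2% in WT and 56.3% in the mutant, and an event of Top3b, a topoisomerase, 10.9 points away. For Abi3bp they were Vps28, a subunit of the endosomal sorting machinery, 6.35 points away, and an exon of Col2a1, the main collagen of cartilage, 9.23 points away with 52.8% and 67.8%. For the first Serpinh1 donor they were Pde2a, a phosphodiesterase, at 3.92 points and Rbm9, a splicing factor, at 4.65 points. For the second donor they were Cuedc2 at 2.30 and Slu7, a splicing factor, at 3.01 points.

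A few other matrix genes had events in the table. Of 95 further gene symbols in lists for collagen making and folding, matrix metalloproteases, microfibrils and elastic fibres, and adhesive matrix proteins, some of them older and newer names of 1 gene, 0 had a listed event. The whole table lists 84 genes, a number equal to 0.384% of the 21900 protein-coding genes of RefSeq (GRCm38.p6), so a count of 0 is read as no result about matrix genes. Of the collagens, 2 genes had 3 events (Col2a1 with a pair, Col11a2 with 1), all with higher inclusion in the mutant, and the pair are forms of 1 exon. Acan, the large proteoglycan of cartilage, was in none of these lists and was noticed in the table afterwards. Its exon of 114 nt had 15.3% inclusion in WT and 28.0% in the mutant, a difference of 12.7 points. Acan and these collagen events moved in the direction of 54.1% of the listed events, and nothing is read from that direction. An unlisted gene may have changed by less than the table's limits or have had too few tags, and the exons that were tested but not listed were not analysed here.

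**Figure D2:**
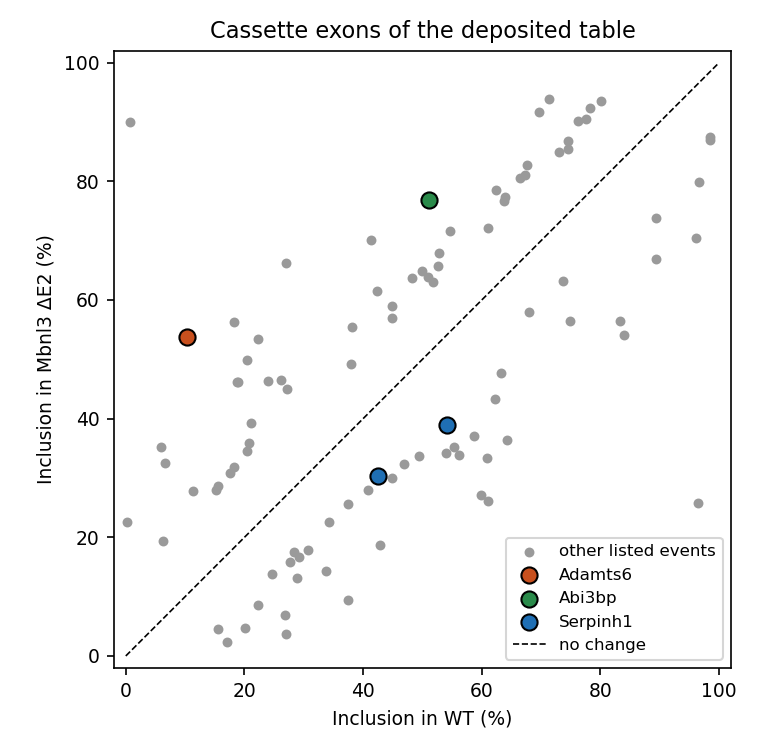
Inclusion in WT (horizontal, percent) against inclusion in ΔE2 (vertical, percent) for the 98 listed events, each point 1 event, with the dashed line at no change. Adamts6 lies far above the line at 10.3% and 53.7%, Abi3bp above it at 51.1% and 76.9%, and the Serpinh1 rows below it at 54.1% and 38.9% and at 42.5% and 30.4%. The Serpinh1 rows share their downstream tags, and each level lies above that of the summed donors.

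CLIP tags are another readout than the inclusion values, although the genes were chosen with earlier results of these data known. They were counted over the whole span of each event, from the upstream to the downstream exon, on the gene's strand. Spans of 1 gene that overlap were joined, which left 85 spans. The WT libraries held 35413, 74123 and 124309 tags. In ΔE2 replicates 2 and 3, 33916 molecules matched in both position and barcode, which was 83.7% and 57.4% of the tags in each. The pair was therefore counted as 1 library of 65730 tags beside replicate 1 with 67279. WT replicate 3 and ΔE2 replicate 1 shared 20258 molecules, 16.3% and 30.1% of their tags, so the genotypes' libraries are not fully separate. The WT libraries shared molecules with one another too. The overlap was 24005 molecules for WT replicate 2 with replicate 3, equal to 32.4% and 19.3% of the tags in each. It was 11099 for replicate 1 with replicate 3 (31.3% and 8.93%) and 10552 for replicate 1 with replicate 2 (29.8% and 14.2%). The 3 WT libraries are thus not fully separate samples, which bears on every SD and n given for them. The replicates are labelled as biological. The C2C12 libraries were combined by the authors and held 550124 molecules, so they give no spread.

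Mbnl3 tags were found in the Serpinh1 span in every library, in part as molecules shared between libraries. The only tag of WT replicate 1 was a molecule also found in WT replicates 2 and 3. The only tag of ΔE2 replicate 2 was also found in ΔE2 replicate 3. The WT libraries had 1, 2 and 6 tags, or 28.2, 26.98 and 48.3 CPM (tags scaled to 1000000 tags of the library). ΔE2 replicate 1 had 3 tags, or 44.6 CPM, and the joined replicates 2 and 3 also had 3, or 45.6 CPM. The ΔE2 values lay within the range of the WT values. WT averaged 34.5 ± 11.9 CPM (SD, n = 3) over 9 tags in all. ΔE2 averaged 45.1 ± 0.743 CPM (SD, n = 2) over 6 tags. That SD is small because both ΔE2 libraries had 3 tags, and it leaves out the counting error of so few. The 2 ΔE2 libraries also share a molecule in this span.

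The counts were compared between the genotypes over all spans with at least 10 tags in the forelimb libraries, 20 of the 85. Serpinh1 had a log2 fold of 0.07 for ΔE2 over WT with a standard error of 0.49 (edgeR quasi-likelihood test, Benjamini-Hochberg adjusted p = 0.972). The rate of tags in ΔE2 was 1.17 times that in WT, with an exact 95% interval of 0.343 to 3.69 from counting error alone. That interval holds both lower and higher rates in ΔE2, and what size of difference could be detected at this depth was not tested. edgeR called 0 of the 20 spans (0%), with 2 at an unadjusted p under 0.05, and DESeq2 called 0, with 0 at an unadjusted p under 0.05. In bulk tissue, more RNA of a gene and more binding per RNA both add tags, and RNA levels of each CLIP sample were not measured. Fewer cells that express a gene and less RNA per cell cannot be told apart either.

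Adamts6 and Abi3bp had 0 tags in their spans in all forelimb libraries. Over the 366854 forelimb tags, 0 tags allow up to 8.18 CPM (3 counts, counting error only). The limit is 12.8 CPM in WT and 22.6 in ΔE2, so values well above those are unlikely to have given 0 tags. Molecules shared between libraries make these limits approximate. Of the 85 spans, 21 had no forelimb tag. With 1000 nt added on each side, the Adamts6 and Abi3bp spans still had 0 forelimb tags and Serpinh1 still 15.

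In C2C12 myoblasts, Serpinh1 had 26 tags, or 47.3 CPM (95% Wilson interval 32.3 to 69.3). This is 1.23 times the pooled WT rate with an interval of 0.558 to 2.98. The rates were counted in unlike ways. In C2C12 each molecule was counted once over the combined set, whereas the 9 pooled WT tags were 7 molecules. Adamts6 had 3 tags, or 5.45 CPM (1.85 to 16.03), below what 0 tags allow in forelimb. Abi3bp had 0 tags in C2C12 as well, which allows up to 5.45 CPM. It was among the 5 of 85 spans with no tag in either tissue or cells. The order of the genes was thus the same in forelimb and in C2C12, with Serpinh1 first and the other two not separable from each other at this depth. Tags on the opposite strand count antisense or mis-stranded reads only, and RNA of the same strand pulled down without Mbnl3 was not measured. Opposite-strand tags numbered 0 in forelimb for all 3 spans, and in C2C12 they were 1 for Adamts6 and 0 for Abi3bp and Serpinh1. Over all 85 spans there were 5 opposite-strand and 653 same-strand tags in forelimb, and 24 and 990 in C2C12.

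Per length of span, Serpinh1 was among the spans with the most tags. It had 9.25 CPM per kilobase in WT (rank 6 of 85), 10.8 in ΔE2 (rank 7) and 11.4 in C2C12 (rank 5). Adamts6 had 0.607 CPM per kilobase in C2C12 (rank 64). This density follows RNA level as well as binding.

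**Figure D3:**
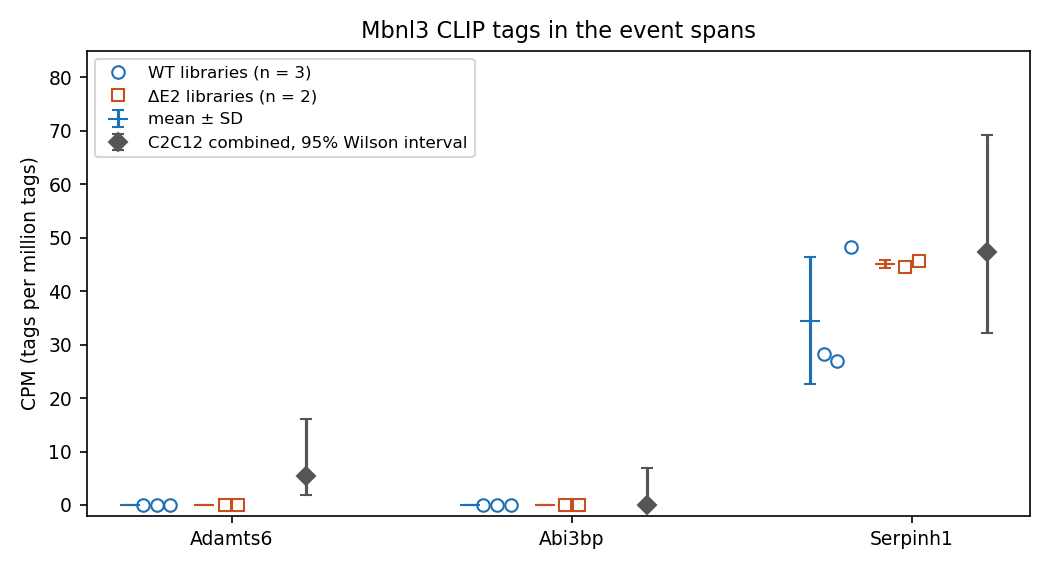
CLIP tags in the event spans of the 3 genes, in CPM (vertical axis). Open circles are the 3 WT libraries, open squares the 2 ΔE2 libraries (replicates 2 and 3 joined), bars mean ± SD, and diamonds the combined C2C12 set with its 95% Wilson interval; Serpinh1 lies between 26.98 and 48.3 in all forelimb libraries, and Adamts6 and Abi3bp at 0.

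In forelimb, the Serpinh1 tags did not lie on the exon that changed. The table names the exon's ends relative to its neighbours but not the length of each neighbour, so the exon can be placed only within a stretch. Measured from the 3′ end of the span, that stretch runs from 2359 to 3148 nt. The 9 WT tags reached at most 1854 nt from the 3′ end and the ΔE2 tags at most 553 nt, so 0 forelimb tags could touch the exon. Of the WT tags 7 of 9 lay within the last 740 nt, which can hold the downstream exon, and the other 2 lay in the downstream intron at 1 position with different barcodes. All 7 listed ΔE2 tags, counted before replicates 2 and 3 were joined, lay in the same last stretch. The forelimb tags thus gathered at the 3′ end of the event in both genotypes.

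C2C12 showed the same gathering, with 20 of 26 tags in the last 740 nt of the Serpinh1 span. In C2C12, 3 tags lay in the stretch that holds the exon, and whether they touch it could not be placed. Of the 3 Adamts6 tags in C2C12, 0 could touch its exon, which lies between 5851 and 6276 nt from the 3′ end. Those tags lay 92, 3937 and 6992 nt from that end.

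**Figure D4:**
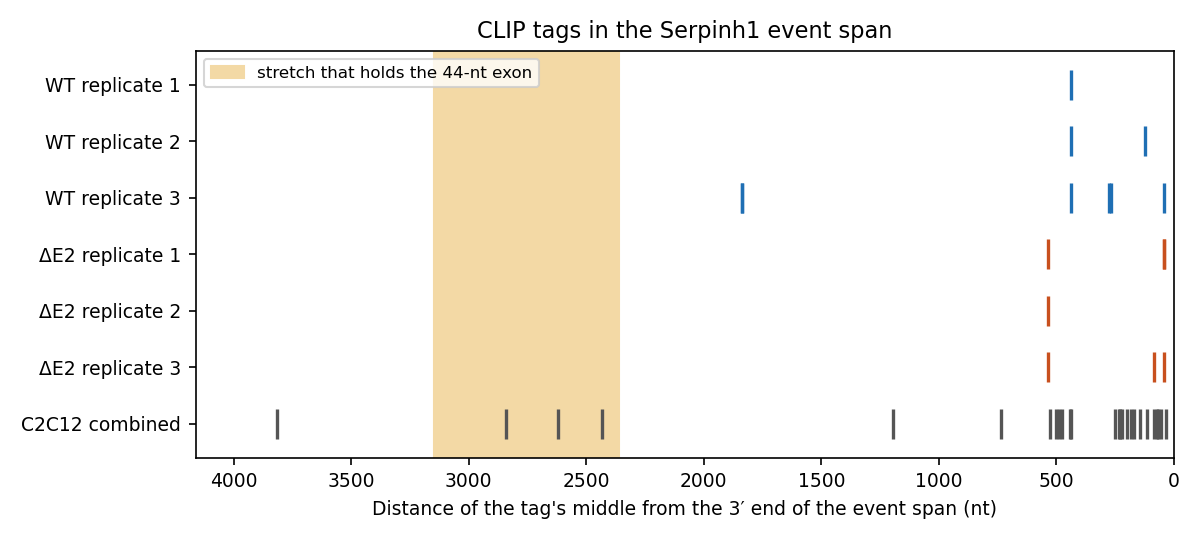
Place of each CLIP tag in the Serpinh1 event span, as the distance of its middle from the 3′ end of the span in nt (horizontal axis, direction of transcription from left to right), with 1 row for each library and each mark a tag. The shaded stretch holds the 44-nt exon; forelimb marks lie to the right of it, most of them within the last 740 nt, and 3 C2C12 tags lie in it.

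Part of the Serpinh1 tags were the same molecules in several libraries. One tag, 420 nt from the 3′ end, had the same position and barcode in all 3 WT libraries, with 2, 1 and 11 reads. Another, 23 nt from the end, was listed with 3287 reads in ΔE2 replicate 1, 2 reads in WT replicate 3 and 1 read in ΔE2 replicate 3. Counted once within each genotype, the tags numbered 7 in WT and 5 in ΔE2. When a molecule found in several libraries was counted only where it had the most reads, the log2 fold for Serpinh1 was 0.26 (edgeR adjusted p = 0.853), an alternative added after seeing the data. With WT replicates 2 and 3 taken as 1 library, also added after seeing the data, it was 0.0097 (edgeR adjusted p = 0.990).

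More tags lay beyond the 3′ end of the Serpinh1 span on the same strand. Within 10000 nt the WT libraries had 1, 4 and 7 tags, or 28.2, 54.0 and 56.3 CPM, and ΔE2 had 4 and 5, or 59.5 and 76.1 CPM. The ΔE2 values were above all WT values, but they rest on only 4 and 5 tags. The difference was not tested, and molecules shared between libraries were not looked for in this stretch. C2C12 had 50, or 90.9 CPM. These tags lay between 1465 and 3381 nt past the span, and which gene or exon they belong to was not analysed here. Upstream of the Serpinh1 span there were 0 forelimb tags within 10000 nt. For Adamts6 there were 0 forelimb tags within 10000 nt on either side, and for Abi3bp 3 on its upstream side, all in WT.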

How the data were processed

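Per the submitters' processing notes, TopHat 1.3.2 aligned the RNA-seq reads and Novoalign the CLIP tags, all to mm9. For Novoalign no version is stated there. The deposited exon table holds estimated counts of tags per isoform and junction, 1 total per genotype, per the file headers. It also holds an odds ratio, a p-value and an adjusted p-value per event, per the file headers. A header names another muscleblind gene for the mutant; its columns were read as the ΔE2 group. In the deposited CLIP files each line is a tag, and the authors' score per tag was not used. Score 0 stands on every line of the C2C12 file, where lines that match in position and barcode were taken as 1 molecule.

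The deposited change in inclusion was recomputed from the junction tags for 98 of 98 events within 0.0005. The plan had named isoform tags as the main measure, and they became the alternative. Span starts were read as counted from 0 and could be off by 1 nt. Event names were read in the direction of transcription, which the order of the minus-strand events of single genes bears out.

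A tag counted for a span if it overlapped by at least 1 nt. The test over spans was edgeR's quasi-likelihood test (version 4.0.16, R 4.3.3) with TMM factors on whole-library totals and 3 residual degrees of freedom. DESeq2 1.42.0 was an alternative. The edgeR step was tested only on simulated data of much greater depth than the real libraries. What it can detect at the real depth was not tested. With so few tags, the common dispersion was 9.77e-05. Python 3.11.15 did the rest. The members and lists were chosen with earlier results of these data known. No ΔE2 and WT libraries were paired in the main test. Fisher's test was run only to recompute the authors' p-values and was used for no new comparison here.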

Additional observations from a re-analysis of the deposited data

How the results depend on the processing

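All 18 alternatives for exon inclusion kept its direction. The difference ranged from 21.4 to 59.0 points for Adamts6, from 18.8 to 32.0 for Abi3bp, from -15.1 to -11.3 for the first Serpinh1 donor and from -13.7 to -5.60 for the second. The log2 fold of Serpinh1 CLIP tags, 0.07, was not called under any of 15 alternatives (edgeR and DESeq2 adjusted p from 0.853 to 0.999). Its sign turned with the 6 libraries as labelled (-0.14), and it ran from -0.0716 to 0.127 when 1 library was left out. Without WT replicate 3, Serpinh1 fell under the minimum of 10 tags and gave no value. No span was called under any of 16 alternatives, with 0 to 4 at an unadjusted p under 0.05. With the replicate number as a block, on the 6 libraries as labelled, the log2 fold of Serpinh1 was -0.084 and 0 spans were called. To look for pairing, each span's mean within its genotype was subtracted from the log2 CPM. What was left correlated at -0.196, -0.256 and -0.0479 between same-numbered libraries over 22 spans, and at -0.163 to 0.323 between differently numbered ones. These are not correlations of the libraries' full profiles. ΔE2 replicates 2 and 3, which share most of their molecules, entered separately. With so few tags, these values cannot show whether the numbers pair the libraries. Few tags limit all CLIP values here.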

Other observations

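In Serpinh1, the share of the upstream exon's first splice donor was lower in tags that skip the 44-nt exon than in tags that include it. The first donor took 57.7% of the upstream tags that include the exon in WT but 39.9% of the tags that skip it. In the mutant these shares were 55.5% and 41.7%. The second donor thus had the larger share of the skipping tags in both genotypes. The tags are 1 total per genotype, so this has no replicate check and was not tested.

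In Serpinh1, the downstream junction also held 87.7 more tags in WT and 111 more in the mutant than both upstream junctions together. These are differences between estimated junction totals, and their source was not tested. In Adamts6, the downstream junction had 1.01 times as many tags in the mutant as in WT, while its upstream junction went from 1.01 to 12.1 tags.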
